A study of Mus musculus with 12 samples.

Results

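The genes described here encode nuclear receptors for steroid hormones and enzymes that make, activate or inactivate those hormones. They were named as a list of 10 genes: Nr3c1, Nr3c2, Esr1, Esr2, Pgr, Srd5a1, Srd5a2, Hsd11b1, Hsd11b2 and Hsd17b4. A probe set assigned to that symbol alone was found for 8 of the 10, among 18193 genes with such a probe set. The expression of Srd5a1 and Srd5a2, which encode the steroid 5-alpha-reductases, was not analysed here. Where a gene had several probe sets, the one with the highest mean log2(signal + 16) over all arrays stood for it.

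The measurements came from 12 Affymetrix arrays of sorted prostate epithelium from male C57BL/6 mice. The animals were 8 weeks old when they were castrated by removal of the testes or left intact, and cells were collected 4 weeks later. Lineage-negative, EpCAM-positive cells were sorted as luminal (low CD49f) or basal (high CD49f), which gave 4 groups of 3 arrays, 1 for each pairing of cell type (luminal or basal) with state (intact or castrated). The sources describe 3 biological replicate sets with intact animals paired to castrated ones, and do not say how many mice were in each set or whether arrays with the same replicate number share a set.

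Steroid receptors are transcription factors that bind a hormone, leave a complex of chaperones and act on target genes in the nucleus. The prostate depends on androgen for its size and secretion, and it also holds receptors for glucocorticoids, mineralocorticoids and estrogens. Which hormone reaches a receptor is set in part by enzymes in the same cell: 11-beta-hydroxysteroid dehydrogenase type 1 (Hsd11b1) regenerates active glucocorticoid, type 2 (Hsd11b2) inactivates it, and 17-beta-hydroxysteroid dehydrogenases interconvert or oxidise sex steroids.

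The sequence upstream of the annotated start is shown for 3 of the genes: Nr3c2, which differed between cell types, and Esr1 and Hsd11b1, which had the lowest unadjusted p-values of the list for castration in basal cells. Each is the 250 bases before a RefSeq transcript start on GRCm38.p6, written 5′ to 3′ on the strand of the gene. The Nr3c2 window is chr8:76902080-76902329 on the plus strand. The Esr1 window, at the upstream of 2 starts in the table, is chr10:4611739-4611988 on the plus strand. The Hsd11b1 window is chr1:193242361-193242610 on the minus strand. The Nr3c2 and Hsd11b1 windows lie inside the annotated span of the gene.
Nr3c2: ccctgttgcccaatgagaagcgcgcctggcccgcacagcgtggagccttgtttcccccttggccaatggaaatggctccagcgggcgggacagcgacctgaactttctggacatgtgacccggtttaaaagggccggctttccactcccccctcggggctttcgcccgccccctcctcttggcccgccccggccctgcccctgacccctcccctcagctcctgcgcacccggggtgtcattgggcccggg
Esr1: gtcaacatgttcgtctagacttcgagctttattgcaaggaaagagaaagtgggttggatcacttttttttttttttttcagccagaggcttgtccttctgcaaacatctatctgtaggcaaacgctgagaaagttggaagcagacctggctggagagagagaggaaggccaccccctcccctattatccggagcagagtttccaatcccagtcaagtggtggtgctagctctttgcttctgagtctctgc
Hsd11b1: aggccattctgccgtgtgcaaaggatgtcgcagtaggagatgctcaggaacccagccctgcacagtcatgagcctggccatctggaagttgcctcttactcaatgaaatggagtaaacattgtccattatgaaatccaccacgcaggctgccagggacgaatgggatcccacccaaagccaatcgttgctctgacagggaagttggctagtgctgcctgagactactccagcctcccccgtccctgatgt
All letters are lower case because neither motif searched was found in them. The motifs were AGAACA, the core bound by glucocorticoid, mineralocorticoid and progesterone receptors (TGTTCT on the other strand), and AGGTCA, the core bound by estrogen receptors (TGACCT on the other strand). Over all 32851 RefSeq windows of that length, AGAACA was present on either strand in 16.1% and AGGTCA in 14%. Neither was present in any of the 8 windows searched, against 27.7% of all windows with at least 1 of them. These windows came from 7 of the 10 genes: Nr3c2, Esr1, Esr2, Pgr, Srd5a1, Srd5a2 and Hsd11b1. Windows of Nr3c1, Hsd17b4 and Hsd11b2 were not searched, so the result does not cover them. No match says only that these letters are not in this window. The Nr3c2 window had a GC content of 68.4% and 17 CpG dinucleotides, against medians of 52.4% and 6 over all windows, and the Esr1 window had 47.6% and 4.

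The sorted cells carried the markers of their labels. All 10 basal marker genes (keratins, Trp63, integrins and others) were lower in luminal than in basal cells, intact and castrated, and of 8 luminal markers 6 were higher and 1 was lower in both states. Fibroblast markers moved with both castration and cell type. Their summed signal was 8222 to 14953 on intact luminal arrays, 905 to 1073 on castrated luminal arrays, 40842 to 52018 on intact basal arrays and 24450 to 29607 on castrated basal arrays. Of 12 fibroblast markers, 7 fell with castration in luminal cells and 4 in basal cells, and Col1a1, Pdgfra, Sparc and Thy1 were near background in castrated luminal cells. Seminal vesicle transcripts were also present: their sum was 238651 to 394826 in intact luminal, 21239 to 40350 in castrated luminal, 27368 to 42866 in intact basal and 3576 to 5331 in castrated basal cells. The replicate 3 arrays had the lowest array weight in each of the 4 groups, and intact luminal replicate 3 had the highest fibroblast, leukocyte and endothelial sums of its group. In such pools of cells, fewer cells of a type and less RNA per cell cannot be told apart.

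Differences below are log2 differences ± standard error between group means of log2(signal + 16), from limma fitted to all 12 arrays (n = 3 a group), so they understate the change of dim genes. P-values are adjusted by the Benjamini-Hochberg method over the 14645 genes tested, and a gene was called at an adjusted p under 0.05. A gene is near background in a group whose 3 arrays all had it under their 40th percentile of signal. All 8 genes passed the filter on low values (above that percentile on at least 3 arrays). Esr2 did so with 3 arrays, Hsd11b1 with 4 and Hsd11b2 with 7, whereas Nr3c1, Esr1 and Hsd17b4 were above it on all 12, Nr3c2 on 11 and Pgr on 9. Levels are compared within a gene only.

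Castration called none of the 8 genes in either cell type. In luminal cells 0 of 8 passed, where 5.86% of all genes tested were called, and 0 of 8 had an unadjusted p under 0.05. In basal cells 0 of 8 passed, where 2.62% of all genes were called, and 2 of 8 (Esr1 and Hsd11b1) had an unadjusted p under 0.05. The castrated and intact arrays did not overlap for 2 of 8 genes in luminal cells (Nr3c2 and Esr1; 31.8% of all genes) and for 4 of 8 in basal cells (Nr3c1, Esr1, Pgr and Hsd11b1; 19.8% of all genes). The median castration difference of the 8 genes was 0.25 in luminal cells, against -0.09 over all genes, and -0.07 in basal cells, against -0.11.

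Between the cell types, Hsd17b4 was higher in luminal than in basal cells in intact mice, and Hsd17b4 and Nr3c2 were higher in luminal cells of castrated mice. These were 1 of 8 genes in intact mice, where 19.5% of all genes were called, and 2 of 8 in castrated mice, where 18.4% were called. Luminal and basal arrays did not overlap for 3 of 8 genes in intact mice (Nr3c2, Hsd11b1 and Hsd17b4; 32.0% of all genes) and for 4 of 8 in castrated mice (Nr3c1, Nr3c2, Hsd11b2 and Hsd17b4; 41.1%). The median luminal minus basal difference was 0.58 in intact and 0.83 in castrated mice, against 0.07 and 0.08 over all genes. The interaction test, which asks whether the castration effect differs between the cell types, called 0 of 8 genes against 1.15% of all genes, and Hsd11b1 alone had an unadjusted p under 0.05.

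**Figure D1:**
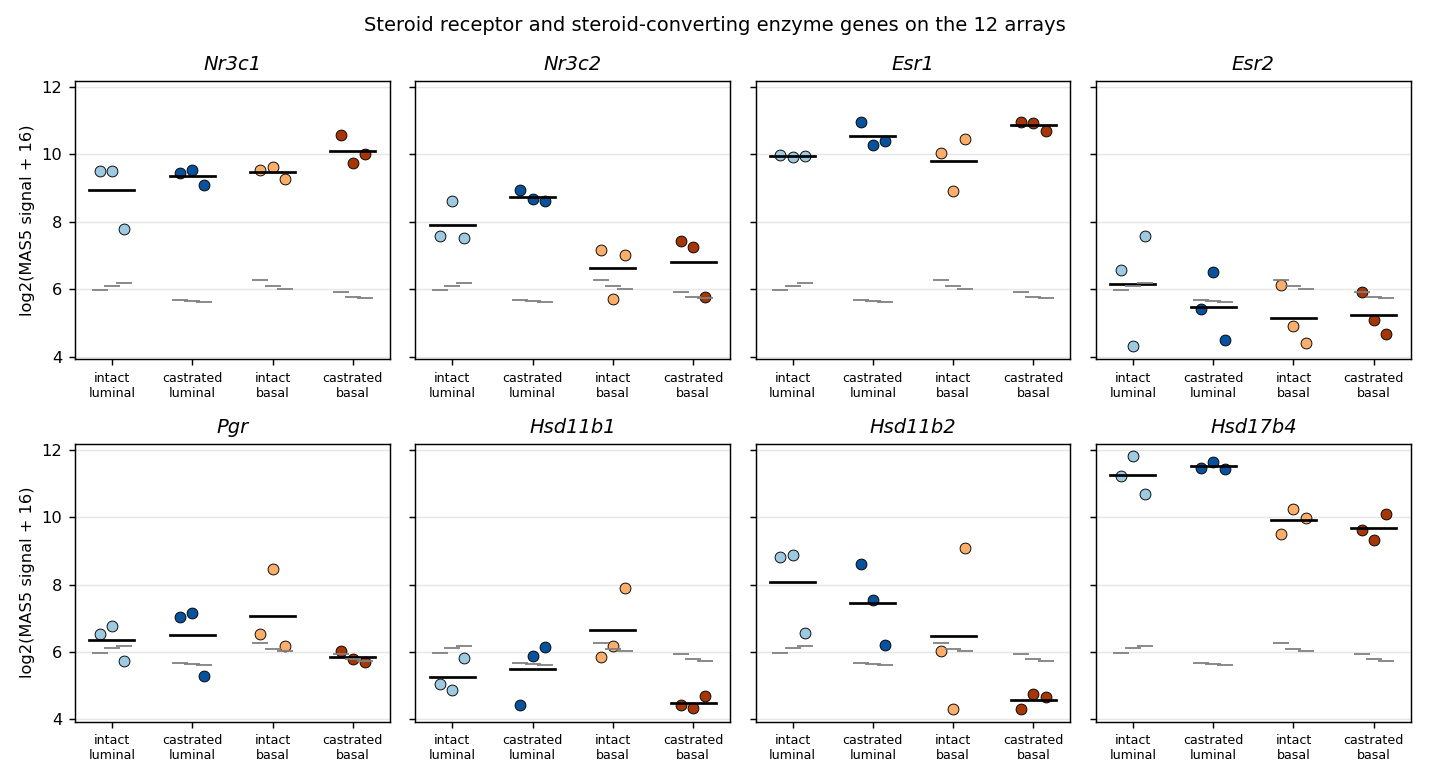
Log2(MAS5 signal + 16) of the 8 genes on each of the 12 arrays, by group. Points are arrays in the order of replicates 1 to 3, black bars are group means and grey ticks are the 40th percentile of each array. Hsd17b4 and Nr3c2 lie higher in the luminal groups, and Esr2, Hsd11b1 and part of Hsd11b2 lie around or under the grey ticks.

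**Figure D2:**
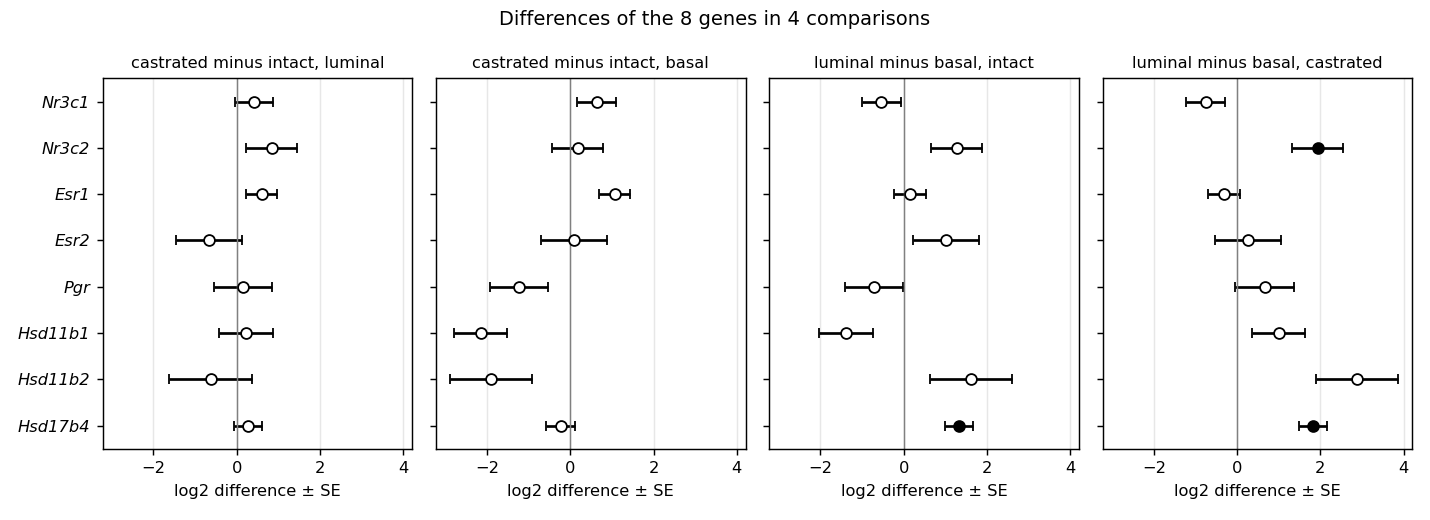
Log2 difference ± SE of each of the 8 genes in 4 comparisons, on 1 shared scale, with filled points at an adjusted p under 0.05. The filled points are Hsd17b4 in both luminal minus basal comparisons and Nr3c2 in castrated mice, and no point is filled for castration.

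Among the receptors, Nr3c2 showed the cell type difference. Nr3c2 (1435991_at, chr8:76898083-77245012, GRCm38.p6) encodes the mineralocorticoid receptor, which binds aldosterone and also glucocorticoids. Its signal was 174, 376 and 168 on the intact luminal arrays and 473, 391 and 376 on the castrated luminal arrays. It was 126, 36.4 and 113 on the intact basal arrays and 155, 135 and 38.5 on the castrated basal arrays. Every luminal array was above every basal array, and basal replicates 2 (intact) and 3 (castrated) were the dimmest.

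In castrated mice Nr3c2 was higher in luminal than in basal cells by 1.93 ± 0.61, a 3.82-fold difference (limma, adjusted p = 0.0367). In intact mice the difference was 1.28 ± 0.61, with a 95% interval of -0.02 to 2.58 and an adjusted p of 0.167 (limma). The castration difference in luminal cells was 0.84 ± 0.61 (limma, adjusted p = 0.503), with castrated above intact on all arrays by a narrow gap. In basal cells it was 0.18 ± 0.61 (limma, adjusted p = 0.918). In order of level, castrated luminal stood above intact luminal, then castrated basal and intact basal, and no pair of neighbours in that order passed among those tested. The call in castrated mice was lost without any 1 of the castrated luminal replicates (adjusted p = 0.128, 0.0973 and 0.092 without replicates 1, 2 and 3), without castrated basal replicate 3 (log2 difference 1.41, limma adjusted p = 0.139), without all replicate 3 arrays (1.47, adjusted p = 0.149) and with quantile normalization (1.77, adjusted p = 0.0569). The summed fibroblast markers differed between the same groups in the other direction, and their part in the difference was not tested.

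Over the 12 arrays, the genes whose log2 signal followed Nr3c2 most closely were Pex3 (Pearson r = 0.968), P2ry2 (0.967) and Fas (0.951). The arrays share the group structure, so these values describe likeness of pattern only. Nr3c2 itself correlated with Hsd17b4 at 0.699 and with Hsd11b2 at 0.6 over the same 12 arrays, which share that structure too.

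Nr3c1 (1460303_at, chr18:39410545-39519421) encodes the glucocorticoid receptor, which responds to corticosterone in mice. Its intact luminal signals were 711, 715 and 205, and its castrated luminal signals 678, 722 and 526. In basal cells it read 727, 768 and 597 in intact and 1506, 842 and 1009 in castrated mice. Castrated basal arrays were the brightest and intact luminal replicate 3 was by far the dimmest. The castration difference was 0.64 ± 0.46 in basal cells (limma, adjusted p = 0.511; arrays not overlapping) and 0.41 ± 0.46 in luminal cells (adjusted p = 0.686). Without intact luminal replicate 3 the luminal value turned to -0.16 (adjusted p = 0.909). The luminal minus basal difference was -0.54 ± 0.46 in intact mice (adjusted p = 0.472), which turned to 0.04 (adjusted p = 0.959) without that array, and -0.76 ± 0.46 in castrated mice (adjusted p = 0.289).

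The 6 probe sets of Nr3c1 did not share a direction for castration. In basal cells the probe set used and 1421866_at were positive (0.64 and 0.59), and the other 4 were negative (-0.19 to -1.37). In luminal cells the probe set used and 1457635_s_at were positive (0.41 and 0.70), and the other 4 lay between -0.01 and -1.12. The mean of the probe sets gave -0.18 in luminal and -0.37 in basal cells, neither called (limma, adjusted p = 0.829 and 0.634). For the comparison of cell types, the luminal minus basal differences of all 6 were negative, intact and castrated. They ranged from -0.18 to -2.21 in intact and from -0.16 to -1.06 in castrated mice, with no adjusted p for single probe sets.

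Esr1 (1435663_at, chr10:4611989-5005633), which encodes estrogen receptor alpha, was well above background on all 12 arrays. Its signal was 985, 952 and 980 on the intact luminal arrays and 1980, 1236 and 1330 on the castrated luminal arrays. It was 1033, 463 and 1380 on the intact basal arrays and 1974, 1924 and 1647 on the castrated basal arrays. In both cell types every castrated array was above every intact array, and intact basal replicate 2 was the dimmest of all.

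The castration difference of Esr1 was 1.07 ± 0.38 in basal cells (95% interval 0.27 to 1.86) and 0.60 ± 0.38 in luminal cells (-0.20 to 1.40), and neither passed (limma, adjusted p = 0.143 and 0.416). All 3 Esr1 probe sets were positive in both cell types. 1421244_at gave 1.37 ± 0.47 in luminal and 0.66 ± 0.47 in basal cells, and 1460591_at gave 1.18 ± 0.47 and 1.06 ± 0.47. With the mean of the 3 probe sets the luminal difference was 1.05 and was called (limma, adjusted p = 0.0453). With arrays centred on their medians the basal difference was 1.41 and was called (adjusted p = 0.0461), a scaling that also moved the median of all genes in basal cells from -0.11 to 0.23. Between cell types the difference was 0.15 ± 0.38 in intact and -0.31 ± 0.38 in castrated mice (adjusted p = 0.831 and 0.622), with 95% intervals of -0.64 to 0.95 and -1.11 to 0.49. The probe sets disagreed on the castrated comparison: 1421244_at gave 1.01 ± 0.47, 1460591_at gave 0.69 ± 0.47 and their mean with the probe set used gave 0.46 (adjusted p = 0.3). By mean signal the groups ordered as castrated basal, castrated luminal, intact luminal and intact basal, and no neighbours in that order passed the test.

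**Figure D3:**
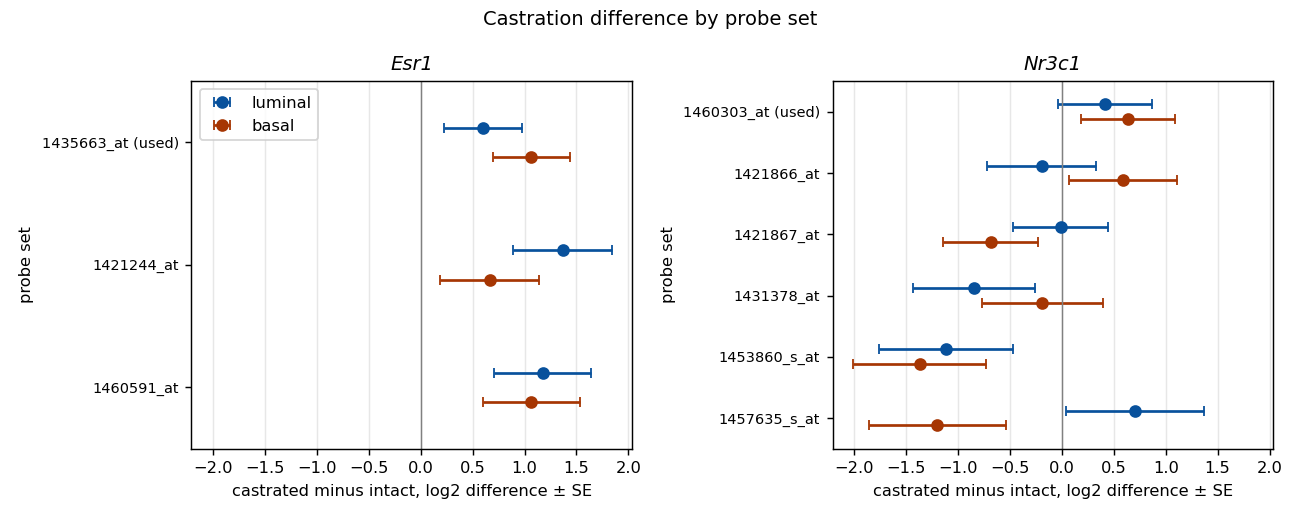
Castrated minus intact log2 difference ± SE for each probe set of Esr1 (left) and Nr3c1 (right), with luminal cells in blue and basal cells in brown. The 3 Esr1 probe sets all lie above 0, whereas those of Nr3c1 fall on both sides.

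Esr2 (1426103_a_at, chr12:76120419-76177259) encodes estrogen receptor beta. Its signal was 78.3, 3.74 and 177 on the intact luminal arrays and 26.6, 75.6 and 6.65 on the castrated luminal arrays. It was 53.4, 13.8 and 5.31 on the intact basal and 44.6, 18 and 9.36 on the castrated basal arrays, near background in both basal groups. The groups overlapped in all 4 comparisons, and adjusted p-values (limma) lay between 0.421 and 0.974.

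Pgr (1439527_at, chr9:8898900-8968611), the progesterone receptor and a target of estrogen receptor alpha in many tissues, was dim. Its signal was 77, 92.3 and 36.9 in intact luminal, 114, 127 and 23.4 in castrated luminal, 76.7, 337 and 56.3 in intact basal and 48.6, 39.3 and 36.3 in castrated basal cells. Intact basal replicate 2 was the highest, and the castrated basal arrays all lay under the intact basal ones. That castration difference was -1.22 ± 0.70 (limma, adjusted p = 0.384), or -0.52 without intact basal replicate 2 (adjusted p = 0.759), and in luminal cells it was 0.15 ± 0.70 (adjusted p = 0.932). Its other probe sets were under the 40th percentile on 9 and 10 of the 12 arrays.

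Of the enzymes, Hsd17b4 gave the firmest difference. Hsd17b4 (1417369_at, chr18:50128201-50196270) encodes the peroxisomal multifunctional enzyme that oxidises estradiol and acts in the beta-oxidation of very long chain and branched fatty acids. Its signal was 2381, 3556 and 1619 on the intact luminal arrays and 2803, 3184 and 2711 on the castrated luminal arrays. It was 714, 1186 and 994 on the intact basal arrays and 773, 625 and 1082 on the castrated basal arrays. Every luminal array was above every basal array.

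Hsd17b4 was higher in luminal than in basal cells by 1.33 ± 0.35 in intact mice (2.51-fold; limma, adjusted p = 0.0116) and by 1.82 ± 0.35 in castrated mice (3.54-fold; adjusted p = 0.0012). The second probe set, 1455777_x_at, gave 1.78 ± 0.45 and 2.01 ± 0.45. The castrated call held in all 25 alternatives run. The intact call was lost without intact luminal replicate 2 (log2 difference 1.04, limma adjusted p = 0.0723) and without intact basal replicate 1 (1.13, adjusted p = 0.0503). Castration moved it by 0.27 ± 0.35 in luminal cells (95% interval -0.46 to 1.00) and by -0.22 ± 0.35 in basal cells (-0.95 to 0.50), with adjusted p-values of 0.729 and 0.792. The closest patterns over the 12 arrays were those of Homer2 (Pearson r = 0.963), Slc9a7 (0.961) and Esyt3 (0.959), again a description of arrays that share their groups.

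Hsd11b2 (1416761_at, chr8:105518746-105523988), which inactivates glucocorticoid and so lets aldosterone reach the mineralocorticoid receptor in the kidney, varied widely within groups. Its signal was 435, 457 and 77.9 on the intact luminal arrays and 378, 171 and 57.4 on the castrated luminal arrays. It was 48.9, 3.92 and 524 on the intact basal arrays and 3.81, 10.7 and 9.52 on the castrated basal arrays, near background on all 3. Replicate 3 was the dimmest array in both luminal groups and the brightest in the intact basal group.

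The luminal minus basal difference of Hsd11b2 in castrated mice was 2.88 ± 0.99 with no overlap of arrays, at least 3.13-fold over the background level, and it missed the threshold (limma, adjusted p = 0.0515). It passed in 10 of 25 alternatives, with adjusted p-values from 0.00544 to 0.209 over all of them. In intact mice it was 1.62 ± 0.99 (adjusted p = 0.288), and it was called without intact basal replicate 3 (2.92, limma adjusted p = 0.0295) and without all replicate 3 arrays (3.69, adjusted p = 0.00423). The castration difference in basal cells, where arrays overlapped, was -1.90 ± 0.99 (adjusted p = 0.332) and -0.59 without intact basal replicate 3 (adjusted p = 0.785). In luminal cells it was -0.63 ± 0.99 (adjusted p = 0.789).

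Hsd11b1 (1449038_at, chr1:193221640-193264045) was near background in intact luminal and castrated basal cells. Its signal was 17.4, 13.4 and 40.5 in intact luminal and 5.35, 42.6 and 55.4 in castrated luminal cells. It was 41.5, 56.4 and 220 in intact basal and 5.56, 4.15 and 9.95 in castrated basal cells. The intact basal arrays all lay above the castrated basal arrays, and replicate 3 stood well above the other intact basal arrays.

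The castration difference of Hsd11b1 in basal cells was -2.15 ± 0.64, at least 1.77-fold against the background level, and it did not pass (limma, adjusted p = 0.0829; 0.0627 to 0.249 over the 24 alternatives). Without intact basal replicate 3 it was -1.52 (adjusted p = 0.249). The bound was taken from the mean of all 3 intact basal arrays, of which replicate 3 (220) stood far above replicates 1 and 2 (41.5 and 56.4). The interaction was 2.38 ± 0.91 (adjusted p = 0.268). In intact mice the basal mean was at least 1.47-fold above luminal cells (adjusted p = 0.151), with luminal arrays up to 40.5 and basal arrays from 41.5. That bound too includes intact basal replicate 3, and intact basal replicate 1 was itself under the 40th percentile of its array. Castration in luminal cells and the cell types of castrated mice, each set against a group near background, gave no bound above 1 (adjusted p = 0.887 and 0.32). The fibroblast marker sum was lower in castrated than in intact basal cells too, from 40842 to 52018 down to 24450 to 29607, and its part in the difference was not tested.

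The other genes of these pathways were taken from lists of enzymes, receptors, chaperones, coregulators and hormone-responsive genes. Among 25 other steroid-converting enzymes and carriers, 3 fell with castration in luminal cells (Cyp21a1, Sult1a1 and Sult1e1) and none passed in basal cells, where 5.86% and 2.62% of all genes were called in either direction. Cyp21a1, the steroid 21-hydroxylase of corticosteroid synthesis, read 1358, 1142 and 2078 in intact luminal cells and 105, 46.1 and 59.3 in castrated luminal cells, a castration difference of -4.17 ± 0.55 (limma, adjusted p = 0.000183). The sulfotransferase Sult1a1 changed by -2.50 ± 0.58 (adjusted p = 0.015), and the estrogen sulfotransferase Sult1e1 was at least 2.04-fold lower, near background after castration (adjusted p = 0.037). In basal cells Sult1e1 was not called but was at least 2.53-fold lower. Its basal signals went from 308, 126 and 46.1 to 23.1, 4.95 and 35.0, near background after castration too. The Sult1e1 call was kept in 14 of 24 alternatives and the Sult1a1 call in 21 of 25, with adjusted p-values up to 0.0957 when intact luminal replicate 1, castrated luminal replicates 1 or 3, or all replicate 3 arrays were left out.

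Between the cell types, 4 of these 25 enzyme genes were higher and 1 was lower in luminal cells of intact mice, and 3 were higher and 0 lower in castrated mice, against 19.5% and 18.4% of all genes called. H6pd, which supplies the NADPH that Hsd11b1 uses in the endoplasmic reticulum, had signals of 1965, 2421 and 1642 on the castrated luminal arrays and 143, 90.9 and 10.6 on the castrated basal arrays. That difference was 4.70 ± 0.75 (limma, adjusted p = 0.000269), or 3.94 without castrated basal replicate 3. In intact mice, with basal signals of 51.6, 286 and 766, it was 2.27 ± 0.75 (adjusted p = 0.0412). Without intact basal replicate 1 it was 1.32 (adjusted p = 0.202), and its call was lost without any single luminal array or without intact basal replicate 2 as well. Hsd17b11, a short-chain dehydrogenase of lipid droplets, was higher in luminal cells by 2.99 ± 0.44 in intact mice (adjusted p = 0.000124) and by 1.81 ± 0.44 in castrated mice (adjusted p = 0.00762; 1.13 without castrated basal replicate 3). Fdx1, the electron donor of mitochondrial steroid hydroxylases, was higher in castrated luminal cells by 0.94 ± 0.27 (adjusted p = 0.0237). In intact mice Cyp21a1 and Sult1a1 were higher in luminal cells by 2.27 ± 0.55 and 2.09 ± 0.58, and Hsd17b7, a reductase of cholesterol and estrogen synthesis, was lower at -1.33 ± 0.41 (limma, adjusted p = 0.00709, 0.017 and 0.031). The Cyp21a1 value was 0.82 and not called with the mean of its probe sets (adjusted p = 0.27). Single arrays ended the intact calls of Sult1a1 (intact luminal replicates 1 or 2, or intact basal replicate 2) and Hsd17b7 (replicates 1 or 2 of either intact group). They also ended the castrated call of Fdx1 (castrated luminal replicates 1 or 3, or castrated basal replicates 1 or 2), and adjusted p-values reached 0.0657, 0.118 and 0.113.

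Among 27 other nuclear and membrane receptors, 1 fell with castration in luminal cells (Paqr5, a membrane progestin receptor, -1.51 ± 0.42, limma adjusted p = 0.0411) and 1 in basal cells (Nr2c1, an orphan nuclear receptor, -2.91 ± 0.52, adjusted p = 0.00737), where 5.86% and 2.62% of all genes were called. The Paqr5 call was kept in 14 of 25 alternatives, and that of Nr2c1 in 22 of 25. With the mean of its probe sets Nr2c1 was at -0.76 (adjusted p = 0.371), and without all replicate 3 arrays at -2.19 (adjusted p = 0.0551). In intact mice 1 was higher and 2 lower in luminal cells, and in castrated mice 3 were higher and 4 lower, against 19.5% and 18.4% of all genes called. Esrrg, an orphan receptor related to the estrogen receptors, was higher in luminal cells by 3.70 ± 0.53 in intact mice and by 3.23 ± 0.53 in castrated mice (adjusted p = 0.000103 and 0.000372). Vdr, the vitamin D receptor, was lower by -2.71 ± 0.63 and -2.94 ± 0.63 (adjusted p = 0.00571 and 0.00318), the first being -2.12 without intact luminal replicate 1. Ppard, a fatty acid receptor, was lower in castrated luminal cells (-2.38 ± 0.53, adjusted p = 0.00414), Nr2c1 was higher there (2.02 ± 0.52, adjusted p = 0.0109; 0.51 and adjusted p = 0.448 with the mean of its probe sets), and the progestin receptor Paqr7 was lower in intact luminal cells (-2.43 ± 0.65, adjusted p = 0.0144; 0.0598 without intact luminal replicate 3). The castrated Nr2c1 call was also lost without castrated luminal replicate 3 (adjusted p = 0.0561).

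Of 12 chaperones and cochaperones of the receptors, 2 fell with castration in luminal cells, where 5.86% of all genes were called. They were Fkbp5, a cochaperone that is itself induced by androgen and glucocorticoid, and Hspa8 (-0.79 ± 0.15, limma adjusted p = 0.00336). The Hspa8 call was lost with quantile normalization (-0.16), median centring (-0.41) and without the intensity trend of the variance. None of the 12 passed in basal cells (2.62% of all genes). Between cell types 19.5% of all genes were called in intact and 18.4% in castrated mice. In intact mice 3 were higher in luminal cells, among them Fkbp4 (1.24 ± 0.29) and St13 (1.26 ± 0.30), and 2 were lower, Dnaja1 (-0.65 ± 0.16) and Hsp90aa1 (-0.62 ± 0.17). In castrated mice 2 were higher, St13 (1.22 ± 0.30) and Bag1 (0.60 ± 0.19), and 3 were lower, with Hsp90aa1 at -1.13 ± 0.17 and Hspa8 at -0.83 ± 0.15. The Hspa8 value was -0.21 and not called with quantile normalization (adjusted p = 0.159). Single arrays ended the intact calls of Dnaja1 (intact basal replicate 3) and Hsp90aa1 (intact luminal replicate 1, or intact basal replicates 1 or 3) and the castrated call of Bag1 (any castrated luminal array, or castrated basal replicates 1 or 2), with adjusted p-values up to 0.0568, 0.0898 and 0.154.

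Of 16 coregulators, Ncoa4 fell with castration in luminal cells (-0.86 ± 0.25, limma adjusted p = 0.0481, called in 8 of 25 alternatives). Prmt1 (1.22 ± 0.29, adjusted p = 0.0358) and Nrip1 (0.99 ± 0.24, adjusted p = 0.0379) rose in basal cells, with calls kept in 13 and 10 of 25 alternatives. These were 1 and 2 of 16, where 5.86% and 2.62% of all genes were called. In luminal cells Nrip1 and Prmt1 rose by 0.84 ± 0.24 and 0.65 ± 0.29 without overlap of arrays. Neither luminal rise was called (limma, adjusted p = 0.0503 and 0.232), and neither was the interaction (adjusted p = 0.9 and 0.617). None of the 16 was called higher in luminal than in basal cells, and 2 were called lower in intact and 4 in castrated mice (19.5% and 18.4% of all genes called in either direction). Tgfb1i1, a coactivator found in mesenchymal cells, was at least 30.2-fold lower in intact luminal cells, where it was near background, and lower by -5.30 ± 0.55 in castrated ones. In intact mice the summed fibroblast markers were also lower on luminal (8222 to 14953) than on basal arrays (40842 to 52018). Summed smooth muscle markers were 569 to 2488 and 3338 to 4303 on these arrays. The part of such cells in the Tgfb1i1 difference was not tested. Crebbp, an acetyltransferase coactivator, was lower by -1.20 ± 0.22 and -0.74 ± 0.22, and Ncoa4 and Nrip1 by -1.04 ± 0.25 and -0.85 ± 0.24 in castrated mice. Single arrays ended the castrated calls of Crebbp (castrated luminal replicates 1 or 2, or castrated basal replicate 1) and Nrip1 (castrated luminal replicates 2 or 3, or castrated basal replicates 1 or 2), with adjusted p-values up to 0.0913 and 0.101.

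Of 20 genes known to respond to glucocorticoid in various tissues, 6 fell and 0 rose with castration in luminal cells, and 1 fell and 1 rose in basal cells, with a median difference of -0.43 in luminal and -0.17 in basal cells against -0.09 and -0.11 over all genes. The shares of all genes called were 5.86% and 2.62%. Several of them (Fkbp5, Zbtb16) also respond to androgen, Sult1a1 is on the enzyme list too, and the metallothioneins respond to metals, so the list does not report on 1 receptor. The 6 were Fkbp5, Mt1, Mt2, Rgs2, Sult1a1 and Zbtb16, and the count was 5 to 7 when single arrays were left out and 6 to 9 over the other alternatives.

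The metallothioneins Mt1 and Mt2, which bind zinc and copper, fell in luminal cells, with differences of -2.30 ± 0.19 and -2.27 ± 0.18 (limma, adjusted p = 1.62e-06 and 7.34e-07). Mt2 had signals of 40602, 35559 and 38891 in intact and 9963, 8453 and 5875 in castrated luminal cells, with no overlap. In basal cells the differences were 0.01 ± 0.19 and -0.05 ± 0.18 (adjusted p = 0.99 and 0.916). Rgs2, a regulator of G protein signalling, fell by 2.97 ± 0.28 on the log2 scale in luminal cells (adjusted p = 6.78e-06), against -0.16 ± 0.28 in basal cells (adjusted p = 0.822). Fkbp5 fell by 2.85 ± 0.42 in luminal cells (adjusted p = 0.000523), from signals of 3440, 4468 and 2529 to 472, 329 and 616, and its basal difference of -1.47 ± 0.42 did not pass (adjusted p = 0.0674). Zbtb16, a zinc finger repressor, fell in basal cells by 2.12 ± 0.38 (adjusted p = 0.00737).

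Sgk1, a kinase induced by both glucocorticoid and aldosterone, moved the other way in basal cells. Its signal was 11968, 13693 and 10924 on the intact basal arrays and 21481, 18331 and 24447 on the castrated basal arrays, a difference of 0.81 ± 0.17 (limma, adjusted p = 0.0173) that was called in 21 of 25 alternatives (highest adjusted p = 0.192), and not without intact basal replicate 3, without castrated basal replicate 3, without the intensity trend or in a fit of the 2 basal groups alone. In luminal cells the difference was -0.49 ± 0.17 (adjusted p = 0.1). The castration effects in the 2 cell types differed for 4 of the 20 genes, Mt1, Mt2, Rgs2 and Sgk1, by the interaction test (1.15% of all genes called), and for 0 of the 20 without the intensity trend.

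**Figure D4:**
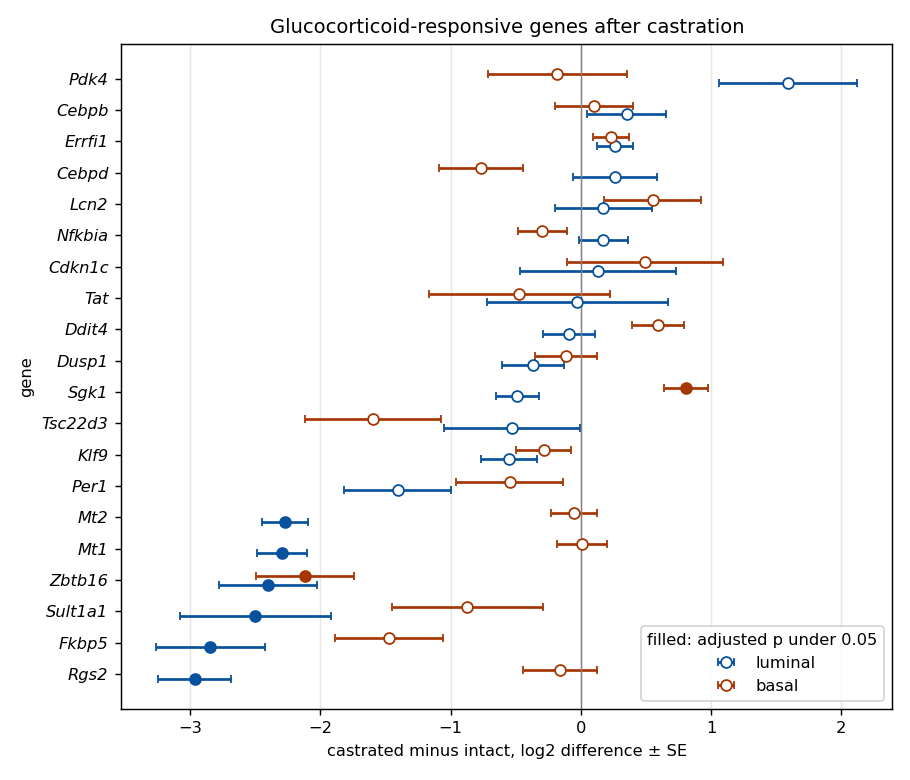
Castrated minus intact log2 difference ± SE of the 20 glucocorticoid-responsive genes, in luminal (blue) and basal (brown) cells, with filled points at an adjusted p under 0.05. The filled luminal points of Rgs2, Fkbp5, Sult1a1, Zbtb16, Mt1 and Mt2 all lie under -2, and in basal cells Zbtb16 and Sgk1 are filled on opposite sides of 0.

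Between cell types, 2 of the 20 were higher and 6 lower in luminal cells of intact mice, and 0 were higher and 9 lower in castrated mice, against 19.5% and 18.4% of all genes called. Pdk4, which restrains pyruvate oxidation, was lower in luminal cells by -7.34 ± 0.53 in intact and -5.57 ± 0.53 in castrated mice (limma, adjusted p = 8.48e-08 and 1.52e-06). Its intact luminal signals were 5.49, 55.9 and 11.2, of which 1 was above the 40th percentile of its array, so the size of the intact difference depends on values at background. Ddit4, an inhibitor of mTOR signalling, was lower by -1.20 ± 0.20 and -1.88 ± 0.20, and Errfi1 by -1.01 ± 0.14 in intact mice. Mt2 and Mt1 were lower in castrated luminal cells by -2.50 ± 0.18 and -1.97 ± 0.19. Sgk1 was higher in intact luminal cells by 0.87 ± 0.17.

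Of 7 tested genes that respond to mineralocorticoid in kidney or colon, 1 fell with castration in luminal cells and 1, Sgk1, rose in basal cells (5.86% and 2.62% of all genes called). Atp1b1, a subunit of the sodium pump, fell by 1.05 ± 0.15 in luminal cells (limma, adjusted p = 0.000367). In intact mice 3 were higher in luminal cells (Sgk1, Atp1b1 by 0.54 ± 0.15 and the ubiquitin ligase Nedd4l by 1.38 ± 0.39) and 1 was lower (the kinase Wnk1, -0.86 ± 0.28, called in 11 of 25 alternatives). These were 4 of 7, where 19.5% of all genes were called. The intact calls of Atp1b1 and Nedd4l were lost without intact luminal replicate 2 or intact basal replicate 2 (adjusted p up to 0.0675 and 0.0884). In castrated mice 0 of the 7 passed in either direction, where 18.4% of all genes were called, and the median difference was -0.09 against 0.08 over all genes.

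Of 12 genes that respond to estrogen or progesterone, 2 fell with castration in luminal cells and 0 passed in basal cells (5.86% and 2.62% of all genes called). Igfbp4, a binding protein of insulin-like growth factors, fell by 3.67 ± 0.53 (limma, adjusted p = 0.000408), from 591, 543 and 2706 to 97.4, 35.6 and 60.2, with the highest value on intact luminal replicate 3. Without that array, which also had the highest fibroblast sum of its group (14953), the difference was -2.93 (adjusted p = 0.000934). The fibroblast sum was lower on all castrated luminal arrays, and its part in the Igfbp4 value was not tested. Ccnd1, cyclin D1, fell by 0.84 ± 0.22 (adjusted p = 0.0284), a call kept in 18 of 25 alternatives and lost with median centring (-0.46, adjusted p = 0.333). Its basal difference was -0.63 ± 0.22 (limma, adjusted p = 0.13), and the interaction of -0.21 ± 0.31 was not called (adjusted p = 0.837). In intact mice 7 of the 12 were higher and 1 lower in luminal cells, among them the protease Ctsd (1.41 ± 0.23), the transcription factor Gata3 (1.26 ± 0.33) and lactoferrin, Ltf, at least 3.32-fold, with Myc lower (-1.05 ± 0.16). The count of 7 lay between 2 (without intact basal replicate 1) and 7 when single arrays were left out, and 19.5% of all genes were called. The Ltf call was lost without intact luminal replicate 3 (log2 difference 1.97, adjusted p = 0.0748) or intact basal replicate 1, and that of Gata3 without intact luminal replicate 2 (adjusted p = 0.0632). In castrated mice, where 18.4% of all genes were called, 3 were higher, among them Ltf (3.90 ± 0.72, or 4.58 without castrated basal replicate 3) and Xbp1 (1.54 ± 0.32), and 2 were lower, Igfbp4 (-5.04 ± 0.53) and Myc (-0.73 ± 0.16).

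Of 13 prostate genes listed as androgen-dependent, 7 fell and 2 rose with castration in luminal cells, where 5.86% of all genes were called. In basal cells 4 fell and 1 rose, where 2.62% of all genes were called. The list gave no direction for a gene. The secretory transglutaminase Tgm4 fell, with differences of -7.21 ± 0.43 in luminal and -4.65 ± 0.43 in basal cells (limma, adjusted p = 3.24e-08 and 9.42e-06), and so did probasin, Pbsn, with -3.57 ± 0.44 and -7.12 ± 0.44 (adjusted p = 0.000113 and 7.29e-08; -7.79 in basal cells without castrated basal replicate 1). Pbsn read 134, 19.1 and 23.2 on the castrated basal arrays, with replicates 2 and 3 under the 40th percentile of their arrays. The size of its differences from castrated basal cells therefore depends on values at background. Msmb, a secreted protein, had signals of 40816, 41762 and 5532 in intact luminal cells and 26.7, 51.0 and 45.4 in castrated luminal cells, a difference of -8.56 ± 0.93 (adjusted p = 3.13e-05) that was -9.53 without intact luminal replicate 3. Ndrg1 rose by 1.64 ± 0.19 in luminal cells (adjusted p = 5.76e-05), clusterin, Clu, rose by 1.92 ± 0.23 in basal cells (adjusted p = 2e-04), and Zbtb16, given above, fell in basal cells. Between cell types 6 were higher and 2 lower in luminal cells of intact mice, against 19.5% of all genes called, with Clu at 3.35 ± 0.23, Azgp1 at 5.53 ± 0.52, Ndrg1 at -2.63 ± 0.19 and Steap4 at -3.77 ± 0.28. In castrated mice 5 were higher and 2 lower, against 18.4% of all genes called, with Pbsn at 6.45 ± 0.44 (7.12 without castrated basal replicate 1), Mmp7 at 5.85 ± 0.54, Azgp1 at least 14.2-fold higher and Ndrg1 at -1.54 ± 0.19. The summed seminal vesicle transcripts fell in the same comparisons, and their part in these falls was not tested.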

How the data were processed

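Per the labels' protocols, the sorted cells' RNA (RNeasy Micro kit) was amplified by a NuGEN Pico system before biotin labelling. The signal intensity deposited by the authors is linear MAS5 signal, per the submitters' processing notes; the version is not given in the sources used here. The trimmed mean of every array was 500, so arrays were already scaled to 1 target. Of 45101 probe sets, 64 controls were left out, and a supplied annotation gave 1 symbol to 34945, several to 932 and none to 9160.

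Genes above the 40th percentile of an array on at least 3 arrays were kept (14645). The 4 group means of log2(signal + 16) entered 1 model in limma 3.58.1 (R 4.3.3; moderated variances, intensity trend, 8 residual degrees of freedom), and the code was tested on simulated data. A fold against a group near background is a bound, the brighter mean against the mean of, per array, the higher of that percentile and the gene itself. P-values set a group difference against the moderated spread between arrays of a group, whose number limits the precision. The number of mice behind an array is not given, so the spread between animals is not known. Figures were drawn with matplotlib.

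Named were the listed genes in every comparison, up to 4 called genes of each pathway list per comparison by lowest adjusted p, and the 3 genes most correlated with each called gene; other values of a named gene were added beside these. The genes and lists were chosen with earlier results of these data known. Alternatives covered normalization, added constant, filter, probe sets, trend, weights, 2-group fits, replicate blocks and leaving out arrays.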

Additional observations from a re-analysis of the deposited data

Results flagged for a closer look

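None of the 8 receptor and enzyme genes passed the test of a castration effect that differs between the cell types, with Hsd11b1 at 2.38 (95% interval 0.46 to 4.30, adjusted p = 0.268). Among the related genes named above, the following 9 did by the interaction term of limma, where 1.15% of all genes were called. They were 4 of 20 glucocorticoid-responsive, 4 of 13 androgen-dependent, 1 of 12 estrogen- and progesterone-responsive and 1 of 7 mineralocorticoid-responsive genes. Sgk1 is on the first and the last of these lists. The other lists, of 12, 16, 25 and 27 tested genes, gave 0. Values are the luminal minus the basal castration effect on the log2 scale. Mt1 stood at -2.31 ± 0.27 and Mt2 at -2.22 ± 0.25 (adjusted p = 0.000584 for each), and Rgs2 at -2.81 ± 0.40 (adjusted p = 0.00293). Sgk1 stood at -1.30 ± 0.23 (adjusted p = 0.0109), lost with quantile normalization, without the intensity trend and without all replicate 3 arrays. Igfbp4 stood at -4.38 ± 0.74 (adjusted p = 0.00732; -3.64 without intact luminal replicate 3) and Clu at -2.10 ± 0.32 (adjusted p = 0.00374). Pbsn stood at 3.55 ± 0.62 (adjusted p = 0.00906; 4.22 without castrated basal replicate 1), where the basal fall was the larger, and Steap4 at 2.21 ± 0.39 (adjusted p = 0.01). The size of the Pbsn value depends on castrated basal signals at background on replicates 2 and 3. Tgm4 stood at -2.56 ± 0.60 (adjusted p = 0.0495) and was called in 8 of 24 alternatives. Without the intensity trend no call of these 9 was kept.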

How the results depend on the processing

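The 25 alternatives, 12 of which left out 1 array, changed no direction of a called value of the 8 genes. With probe sets averaged per gene, 1 gene was called for castration in luminal cells (Esr1), and with median centring 1 in basal cells (Esr1). For luminal against basal cells of intact mice, 2 genes were called with all replicate 3 arrays left out, a setting added after seeing the data, and 0 to 2 with single arrays left out. In castrated mice 1 was called with quantile normalization and 1 to 3 with single arrays left out. The cause of these changes was not tested. Residuals of same-numbered arrays correlated from -0.00723 to 0.0258 over 18 pairs, and those of other pairs from -0.0325 to 0.0352. With 3 arrays a group, such values cannot tell whether arrays with the same number share a replicate set. With the replicate number as a block, 0, 0, 1, 2 and 0 of the 8 genes were called in the 5 comparisons, as without it, and a random block, also added later, had a consensus correlation of 0.0125. Median centring moved the median castration difference of all genes from -0.09 to 0.29 in luminal and from -0.11 to 0.23 in basal cells, and calls from 424 higher and 434 lower to 1021 and 252, and from 164 and 220 to 511 and 115. Calls over all genes ranged from 401 to 1945 for castration in luminal cells (858 as reported), from 120 to 626 in basal cells (384), and from 27 to 246 for the interaction (168), and from 1720 to 3920 between cell types of castrated mice (2701). The stricter filter removed Esr2, Pgr and Hsd11b1, and 2-group fits gave no interaction. Low signal limits Esr2, Pgr, Hsd11b1 and, in basal cells, Hsd11b2.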
